A study of Homo sapiens with 10 samples.

Results

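The first 8 h of calcitriol exposure in SKBR3 breast carcinoma cells were examined on 6 of the 10 expression arrays of the series. They were the 2 arrays from cells exposed to calcitriol for 8 h and the 4 arrays from untreated cells, chosen by their labelled treatment and time, and each 8 h array was set against the untreated mean of its own siRNA. Calcitriol, written D3 in the labels, is the hormonal form of vitamin D3, 1alpha,25-dihydroxyvitamin D3, and was given at 100 nM. SKBR3 is an established human breast carcinoma line with an amplified ERBB2 (HER2) gene, and every array came from cells labelled as carrying the p53R175H mutant and grown in medium with charcoal-stripped serum, which is depleted of steroid hormones. All cells had been transfected with an siRNA, either against LacZ as the negative control (LacZi) or against p53 (p53i). The untreated groups, LacZi and p53i, held 2 arrays each, labelled as biological replicates, and each siRNA had 1 array per D3 time (8, 20 and 50 h). The untreated cells were not described as vehicle-treated or as harvested at matched times, so effects of D3, of its solvent and of the hours in culture cannot be told apart. The siRNA's target was not analysed here.

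Calcitriol acts through the vitamin D receptor, a nuclear receptor that binds DNA mainly as a heterodimer with a retinoid X receptor and recruits coactivators when the hormone is bound. Its best-known target is CYP24A1, the 24-hydroxylase that inactivates calcitriol itself, and in absorptive epithelia it also raises the calcium channel TRPV6. In breast cancer lines calcitriol is known for slowing growth and for changing genes of calcium handling and differentiation.

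Signals were deposited on the MAS5 scale, a linear intensity per probe set after each array was scaled to a common level. Differences are given on the log2(signal + 16) scale, which understates the change of dim genes, and a gene is described as having risen or fallen where the Benjamini-Hochberg adjusted p of limma, a moderated linear model fitted over all 10 arrays, was under 0.05. The trimmed mean signal was 200.03 on each of the 6 arrays and the median signal lay between 35.7 and 43.1. The ratio of 3' to 5' signal of ACTB, a sign of RNA integrity, was 3.79 to 5.05 on 5 of these arrays and 8.72 on p53i untreated replicate 2, while that of GAPDH ran from 1.09 to 1.42. Markers of the line were bright, with ERBB2 signals of 12690 to 16178 and KRT8, a luminal keratin, at 9728 to 14330, whereas CDH1 (E-cadherin) lay between 5.34 and 20.5. Markers of other cell types had median signals of 17.9 to 25.9 over 5 lists, all below the signal of 35.4 needed to enter the test, and none of their 16 members that passed it was called at 8 h. Their summed signals at 8 h lay within the range of the untreated arrays for the fibroblast list (953 to 1111 against 857 to 1313) and the nerve and muscle list (327 to 329 against 194 to 368). The immune list summed to 458 to 479 at 8 h and 277 to 470 in untreated cells, the endothelial list to 387 to 466 and 401 to 662, and the liver list to 215 to 248 and 224 to 316.

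After 8 h of calcitriol, 17 genes rose and 4 fell (limma, adjusted p under 0.05) out of 12022 tested. The 21 called genes were 0.175% of those tested, 0.141% for the genes that rose and 0.0333% for those that fell, and 902 genes had an unadjusted p under 0.05. Centring each array on its median gave 9 higher and 5 lower, and quantile normalisation gave 21 higher and 4 lower. CYP24A1 stood far apart from the rest with a fold of 106. Behind it came genes of calcium handling (TRPV6, ITPR1), feedback inhibitors of cytokine and NF-kB signalling (SOCS3, NFKBIA), transcription factors (DLX1, ETS2, TGIF1), the catecholamine enzyme PNMT, the sulfate transporter SLC26A2 and the sterol enzyme TM7SF2. BASP1, COL5A2, CENPM and LRRC43 fell. In all 21 genes both 8 h arrays lay outside the range of the 4 untreated arrays. Among all genes 6.75% lay above that range and 6.35% below it. The 21 were called from these same arrays, so the lack of overlap, here and below, describes them and is not separate support.

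Promoter sequences are shown here for genes called at 8 h, because they let the start regions of the early genes be read beside their response. They are the 250 bases upstream of the annotated start in RefSeq on GRCh38.p14, written 5' to 3' on the gene's strand, with capitals marking windows that resemble the DR3 vitamin D response element, a direct repeat of the nuclear receptor site with a spacer of 3 bases. Each 15-base window was compared with the DR3 consensus on both strands, allowing 2 mismatches over its 12 scored positions, and 16 of the 21 called genes had an entry in the promoter table. OPN3, an opsin, and CHML, which encodes the Rab escort protein REP2, overlap and share 1 start region at chr1:241640370-241640619 on the minus strand, and signals of the pair may not be fully separable. SOCS3 lies at chr17:78360926-78361175 on the minus strand, with its matching window 52 to 38 bases before the start. NFKBIA lies at chr14:35404750-35404999 on the minus strand, with the window 198 to 184 bases before the start, and DLX1 at chr2:172085257-172085506 on the plus strand, with the window 30 to 16 bases before it.
OPN3 and CHML: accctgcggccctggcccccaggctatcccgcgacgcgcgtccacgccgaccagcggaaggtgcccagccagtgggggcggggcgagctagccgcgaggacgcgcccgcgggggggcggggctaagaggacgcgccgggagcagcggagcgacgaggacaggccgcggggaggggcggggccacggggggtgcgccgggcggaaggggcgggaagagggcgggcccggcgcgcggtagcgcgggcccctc
SOCS3: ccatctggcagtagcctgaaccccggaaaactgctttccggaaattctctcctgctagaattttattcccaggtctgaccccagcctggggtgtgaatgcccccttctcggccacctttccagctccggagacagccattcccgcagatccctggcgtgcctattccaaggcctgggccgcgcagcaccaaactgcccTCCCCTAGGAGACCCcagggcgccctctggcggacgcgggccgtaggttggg
NFKBIA: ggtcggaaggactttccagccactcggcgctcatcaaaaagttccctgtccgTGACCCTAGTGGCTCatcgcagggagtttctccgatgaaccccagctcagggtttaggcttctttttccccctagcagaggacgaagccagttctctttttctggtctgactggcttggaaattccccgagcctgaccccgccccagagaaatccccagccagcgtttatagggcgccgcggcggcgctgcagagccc
DLX1: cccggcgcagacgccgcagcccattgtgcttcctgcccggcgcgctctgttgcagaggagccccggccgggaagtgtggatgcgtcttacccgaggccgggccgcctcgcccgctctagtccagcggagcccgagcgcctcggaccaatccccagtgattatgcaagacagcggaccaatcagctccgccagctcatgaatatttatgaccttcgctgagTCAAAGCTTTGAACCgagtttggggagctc
Such a window was present in 4 of the 14 genes that rose and had an entry (28.6%; DLX1, NFKBIA, SOCS3 and TGIF1) and in 0 of 2 that fell. It was present in 10990 of all 27303 promoters (40.3%) and in 3458 of the 9762 promoters of genes tested (35.4%), so the share among genes that rose was not above that of promoters at large. With at most 1 mismatch, none of the promoters of these 16 genes matched, against 3.19% of the promoters of genes tested and 4.41% of all promoters. OPN3 and CHML count as separate genes in these shares, although they have the same sequence. A match describes letters only, and its absence says only that these letters were not in the 250 bases scanned. CYP24A1, PNMT, COL5A2, CENPM and ADGRE5 are named without a promoter.

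The enzyme that breaks calcitriol down gave the largest response. CYP24A1 signals were 34.9 and 40.02 in the LacZi untreated arrays, 34.5 and 23.7 in the p53i untreated arrays, 5489 in LacZi cells at 8 h and 4824 in p53i cells at 8 h. The 4 untreated arrays were all near the lower limit of the genes tested, and both 8 h arrays were among the bright signals of the array, with no overlap. The difference was 6.69 in LacZi cells and 6.76 in p53i cells, a mean of 6.72 ± 0.14 (SE) with a limma adjusted p of 2.61e-11. It was 6.61 at 20 h and 6.75 at 50 h, so the level reached at 8 h was also the level at the later times. CYP24A1 was called in each of the 10 fits that left out 1 array. CYP27B1, the enzyme that makes calcitriol, had a difference of -0.18 (limma adjusted p 0.961).

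**Figure D1:**
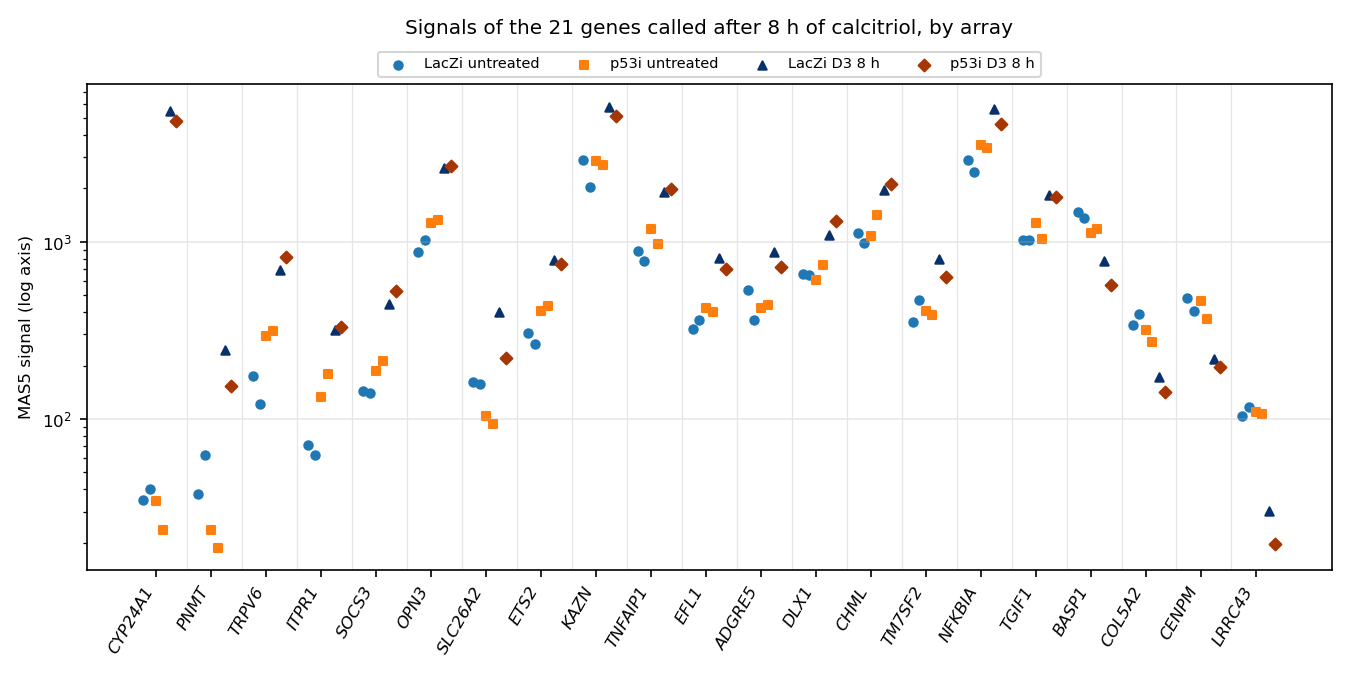
MAS5 signal (log axis) of each of the 21 called genes on the 6 arrays, 1 point per array, with untreated arrays as circles (LacZi) and squares (p53i) and 8 h arrays as triangles (LacZi) and diamonds (p53i). In each gene both 8 h points lie outside the 4 untreated points, by the widest margin in CYP24A1 (5489 and 4824 against 23.7 to 40.02).

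The receptor itself and its partners were not called. VDR, the vitamin D receptor, had signals of 762 and 753 in LacZi untreated, 698 and 811 in p53i untreated, 761 in LacZi cells at 8 h and 579 in p53i cells at 8 h. The LacZi 8 h array lay inside the untreated range and the p53i 8 h array below it, with a mean difference of -0.18 ± 0.13 (limma adjusted p 0.837). RXRA, its heterodimer partner, had a difference of -0.0025 ± 0.13, a sign that changed with the scaling. Of 13 tested genes of the receptor, retinoid X receptors and coregulators, 0 were called (0.175% of all genes were), with a list median of 0.02. In 1 of them both 8 h arrays lay above the untreated range (7.69%, against 6.75% of all genes). Lists here and below were chosen with earlier results of these data known, so their shares are not independent support.

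Among calcium-handling genes, the entry channel TRPV6 and the intracellular release channel ITPR1 rose. TRPV6 signals were 176 and 122 in LacZi untreated, 296 and 313 in p53i untreated, 691 in LacZi at 8 h and 825 in p53i at 8 h. Untreated p53i cells already sat above untreated LacZi cells, and both 8 h arrays lay above all 4. The difference was 2.12 in LacZi and 1.39 in p53i cells, a mean of 1.76 ± 0.20 (limma adjusted p 0.00359). ITPR1, the inositol trisphosphate receptor of the endoplasmic reticulum, read 71.4 and 62.8 in LacZi untreated, 134 and 179 in p53i untreated, 319 in LacZi at 8 h and 332 in p53i at 8 h. As for TRPV6, the 2 treated arrays were close together and the untreated arrays differed by siRNA, which gave differences of 2.01 and 1.03 and a mean of 1.52 ± 0.24 (limma adjusted p 0.0284). The other 14 tested members of the 16 channels, pumps and buffers were not called. ATP2B1, a plasma membrane calcium pump, had a difference of 0.44 and ATP2C1, the Golgi calcium pump, one of 0.37. The median of the list was 0.11 and 4 of its 16 members had both 8 h arrays above the untreated range (25%, against 6.75% of all genes).

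SOCS3 and NFKBIA, both inhibitors of signalling pathways, rose. SOCS3, which restrains JAK-STAT signalling from cytokine receptors, had signals of 143 and 140 in LacZi untreated, 187 and 212 in p53i untreated, 444 in LacZi at 8 h and 524 in p53i at 8 h. Both treated arrays were above the untreated ones on this probe set, with differences of 1.55 and 1.33 and a mean of 1.44 ± 0.14 (limma adjusted p 0.00104). The other SOCS3 probe sets, all dimmer, had mean differences of 0.92, 0.084 and -0.036. NFKBIA, which encodes the NF-kB inhibitor I-kappa-B-alpha, read 2884 and 2488 in LacZi untreated, 3518 and 3392 in p53i untreated, 5584 in LacZi at 8 h and 4649 in p53i at 8 h. The 8 h arrays were the highest of the 6, and the difference was 1.06 in LacZi and 0.43 in p53i cells, a mean of 0.74 ± 0.13 (limma adjusted p 0.0483). Another, dim NFKBIA probe set went the other way, by -0.52. Of 14 tested NF-kB subunits, inhibitors and targets, NFKBIA alone was called, and the list median was -0.13. RELA, the p65 subunit, had a difference of -0.37 and SOD2, mitochondrial superoxide dismutase, one of -0.40, neither called. TNFAIP1, an adaptor for ubiquitin ligation named for its induction by TNF, rose from 775 to 1181 in untreated cells to 1902 and 1996 at 8 h (1.04 ± 0.14, limma adjusted p 0.00797).

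The transcription factors ETS2, DLX1 and TGIF1 rose. ETS2, a factor of the ETS family downstream of ERK, read 306 and 264 in LacZi untreated, 409 and 436 in p53i untreated, 793 in LacZi at 8 h and 750 in p53i at 8 h, with a mean difference of 1.12 ± 0.16 (limma adjusted p 0.0148). DLX1, a homeobox factor, read 657 and 650 in LacZi untreated, 609 and 739 in p53i untreated, 1088 in LacZi at 8 h and 1308 in p53i at 8 h (0.83 ± 0.12, limma adjusted p 0.0142). TGIF1, a homeobox corepressor of TGF-beta and retinoid signalling, lay between 1023 and 1272 in untreated cells and at 1835 and 1797 at 8 h (0.73 ± 0.11, limma adjusted p 0.0254). In each of the 3 genes the treated arrays did not overlap the untreated ones. None of the 23 tested immediate early factors was called (0.175% of all genes were), with a list median of 0.07. FOS had a difference of 0.52 (limma adjusted p 0.210), EGR3 of 0.76 and KLF2 of 0.48. Of 11 tested feedback genes of the ERK pathway, 0 were called, 8 were higher in both siRNAs and 0 were lower in both, against 26.7% higher and 27.6% lower among all genes, and the list median was 0.33. SPRY1 and SPRY4, Sprouty inhibitors of receptor tyrosine kinase signalling, each had a difference of 0.43, and SPRED2, a Sprouty-related inhibitor of Raf activation, one of 0.33.

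Several enzymes, transporters and membrane proteins rose. PNMT, which makes adrenaline from noradrenaline and is a neighbour of ERBB2 on chromosome 17, had signals of 37.4 and 62.6 in LacZi untreated, 23.5 and 18.8 in p53i untreated, 244 in LacZi at 8 h and 153 in p53i at 8 h. All untreated signals were dim and both treated signals lay above them, a difference of 2.10 ± 0.24 (limma adjusted p 0.00359). TCAP, a muscle sarcomere protein gene that lies beside PNMT in RefSeq, read 53.3 and 7.38 in LacZi untreated, 60.5 and 41.8 in p53i untreated, and 115 and 121 at 8 h. Its 1.37 did not pass the test (limma adjusted p 0.369), although the treated arrays did not overlap the untreated ones. Of the 15 tested ERBB receptors, ligands and amplicon neighbours, PNMT alone was called, and 6 had both 8 h arrays above the untreated range (40%, against 6.75% of all genes). ERBB2 itself had a difference of 0.01 ± 0.11, a sign that changed with median centring, GRB7, an adaptor of receptor tyrosine kinases, had one of 0.30, and HBEGF, an EGF receptor ligand, one of 1.10 (limma adjusted p 0.219). The HBEGF signals were 56.5 and 61.2 in LacZi untreated, 49.1 and 47.1 in p53i untreated, 154 in LacZi at 8 h and 113 in p53i at 8 h, with no overlap.

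SLC26A2, a sulfate transporter, read 161 and 157 in LacZi untreated, 104 and 93.2 in p53i untreated, 402 in LacZi at 8 h and 220 in p53i at 8 h. Each treated array was above all untreated arrays, and LacZi was the brighter siRNA before and after D3, with a difference of 1.15 ± 0.17 (limma adjusted p 0.0148). OPN3 read 875 and 1026 in LacZi untreated, 1276 and 1323 in p53i untreated, 2602 in LacZi at 8 h and 2682 in p53i at 8 h (1.24 ± 0.12, limma adjusted p 0.000933), on a probe set whose design allows cross-hybridisation. KAZN, a protein of desmosomes and the cornified envelope, rose from a range of 2032 to 2885 to 5802 and 5118 (1.07 ± 0.13), and CHML from 988 to 1416 to 1967 and 2108 (0.83 ± 0.14). EFL1, a GTPase of ribosome maturation, rose from 322 to 425 to 815 and 703 (0.98 ± 0.14), and ADGRE5, the adhesion receptor CD97, from 363 to 534 to 877 and 724 (0.85 ± 0.15). TM7SF2, a sterol reductase of cholesterol synthesis, rose from 354 to 466 to 799 and 631 (0.80 ± 0.14), the one call among 17 tested mevalonate and cholesterol genes, whose median was 0.06. For these 5 genes the first treated value is LacZi, the treated arrays did not overlap the untreated ones, and the limma adjusted p lay between 0.00576 and 0.0490.

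The 4 genes that fell share no list. BASP1, a growth-cone protein and transcriptional cofactor, had signals of 1476 and 1365 in LacZi untreated, 1119 and 1187 in p53i untreated, 781 in LacZi at 8 h and 570.5 in p53i at 8 h. Both treated arrays lay below all 4 untreated arrays, a difference of -0.92 ± 0.11 (limma adjusted p 0.00576). COL5A2, a fibrillar collagen chain, read 341 and 389 in LacZi untreated, 316 and 273 in p53i untreated, 172 in LacZi at 8 h and 142 in p53i at 8 h (-0.997 ± 0.17, limma adjusted p 0.0414). CENPM, a centromere protein, read 485 and 406 in LacZi untreated, 462 and 367 in p53i untreated, 217 in LacZi at 8 h and 196 in p53i at 8 h (-0.998 ± 0.15, limma adjusted p 0.0165). Neither gene's treated arrays overlapped the untreated ones. LRRC43, a leucine-rich repeat protein, read 103 and 117 in LacZi untreated, 109 and 106 in p53i untreated, 30.1 in LacZi at 8 h and 19.7 in p53i at 8 h, again on a probe set open to cross-hybridisation. The untreated signals were close together and the treated ones fell below the signal needed to enter the test (-1.62 ± 0.23, limma adjusted p 0.0148).

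Probe sets not used for the test were available for 15 of the 21 genes. Of 30 such probe sets, dim ones included, 21 had differences of the same sign as the tested one in both siRNAs. With the mean of a gene's probe sets in place of the brightest, 12 of the 21 genes were no longer called. The values of 7 of these 12 were SOCS3 0.60 (limma adjusted p 0.379), TRPV6 1.01 (0.157), DLX1 0.51 (0.580), TGIF1 0.48 (0.628), NFKBIA 0.11 (0.949), BASP1 -0.33 (0.827) and LRRC43 -0.80 (0.335), each smaller by over 1.5 times. The other 5 were KAZN 0.89 (0.0763), SLC26A2 0.82 (0.222), CHML 0.56 (0.283), TM7SF2 0.80 (0.0763) and ADGRE5 0.85 (0.0763). TM7SF2 and ADGRE5 had no other probe set, so their differences were unchanged and only their adjusted p moved in the refit.

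How far the calls rested on single arrays was examined by leaving each array out. Without the LacZi 8 h array CYP24A1 was the only call, and without the p53i 8 h array 7 genes were called, 6 of them among the 21 (CYP24A1, OPN3, SOCS3, TRPV6, KAZN and NFKBIA). Without LacZi untreated replicate 1 there were 13 calls, with ETS2, SLC26A2, CENPM, TGIF1, ITPR1, CHML, COL5A2, TM7SF2 and NFKBIA lost. Without LacZi untreated replicate 2 there were 11, with EFL1, LRRC43, SLC26A2, TGIF1, ITPR1, CHML, COL5A2, TM7SF2, NFKBIA and ADGRE5 lost. Without either 50 h array there were 14, with TGIF1, ITPR1, CHML, COL5A2, TM7SF2, NFKBIA and ADGRE5 lost. Leaving out p53i untreated replicate 1 lost COL5A2 and ADGRE5, and p53i untreated replicate 2 lost NFKBIA and ADGRE5. Leaving out the LacZi 20 h array lost TM7SF2, NFKBIA and ADGRE5, and the p53i 20 h array lost these and COL5A2. No called gene changed sign in any of these fits.

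The response was next read separately in each siRNA. In LacZi cells 204 genes (1.70%) differed at least 2-fold at 8 h from their untreated mean, and in p53i cells 239 genes (1.99%). The duplicates of the untreated state differed at least 2-fold in 318 genes for LacZi and 430 for p53i. These counts compare single arrays, which differ by more than an array and a mean do from noise alone, so they are not on the same footing as those at 8 h. At least 2-fold in the same direction in both siRNAs were 25 genes (0.208%), 19 higher and 6 lower, of which 8 were called. Between the untreated duplicates, 34 genes differed at least 2-fold with the same sign in both siRNAs. Uncalled genes among the 25 included BAIAP2L2, an actin-membrane adaptor (1.74, limma adjusted p 0.107). The serine protease TMPRSS2 (1.67, adjusted p 0.492) and the DNA repair protein FANCE (1.41, adjusted p 0.0991) were also uncalled. Recounted over all genes tested, 12 were higher and 12 lower under quantile normalisation, and 10 higher and 12 lower under median centring. The members of these recounts need not be the same genes, and BAIAP2L2, TMPRSS2 and FANCE did not change sign under other settings.

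**Figure D2:**
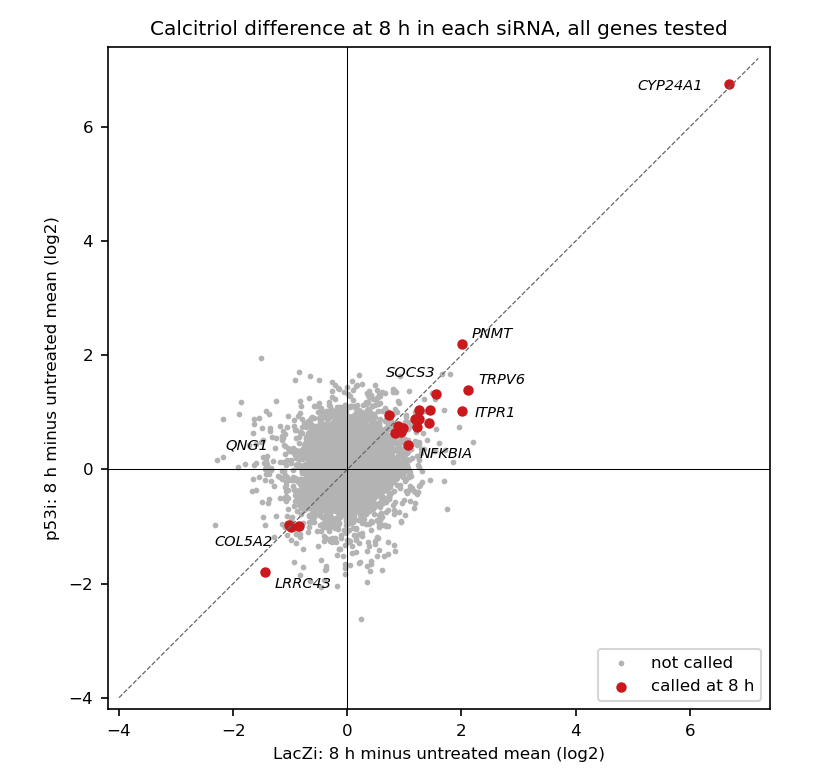
Difference at 8 h from the untreated mean of the same siRNA (log2(signal + 16)) in LacZi cells (x axis) and p53i cells (y axis) for the 12022 genes tested, with the 21 called genes in red and the dashed line marking equal differences. CYP24A1 stands alone at 6.69 and 6.76, most genes form a round cloud at 0, and 15 of the 21 called genes had the larger difference in LacZi cells.

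Whether the 8 h response differed between the siRNAs was tested with an interaction term. The term set the p53i minus LacZi difference at 8 h against that of the untreated, 20 h and 50 h arrays together. It is therefore not the difference between the 2 values given for each siRNA, which use untreated arrays only. For ITPR1 the term was -0.55, beside 2.01 in LacZi and 1.03 in p53i cells. For SLC26A2 it was 0.09, beside 1.25 in LacZi and 1.04 in p53i cells. Over the 21 called genes the term ran from -0.58 to 0.20, and none was called. Its lowest unadjusted p was 0.00810 and 1 was under 0.05, and with 1 array per siRNA at 8 h the term rests on single arrays. Over all genes 1 was called (0.00832%), with 310 at an unadjusted p under 0.05. That gene was QNG1, annotated as a queuosine glycosylase of nucleoside salvage, with 2340 and 2110 in LacZi untreated, 2819 and 2282 in p53i untreated, 446 in LacZi at 8 h and 2832 in p53i at 8 h. The LacZi 8 h array was the one low array, and the 20 h and 50 h arrays of both siRNAs lay between 1913 and 2371. The term was 2.60 ± 0.25 (limma adjusted p 0.00415), and the probe set's design allows cross-hybridisation. A second, dim QNG1 probe set read 65.0 and 31.8 in LacZi untreated, 58.3 and 52.6 in p53i untreated, 44.3 in LacZi at 8 h and 43.6 in p53i at 8 h, with no such difference. No other gene passed. Next by p came PIDD1, a death domain protein, with a term of 1.70, and KLK3, a kallikrein-related peptidase, with -1.82. USF2, a basic helix-loop-helix factor, had a term of 2.00 and PRLH one of 2.66. The LacZi 8 h array was the lowest for PIDD1 (52.3), USF2 (137) and PRLH (8.93), and the p53i 8 h array for KLK3 (60.3).

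Known targets of calcitriol from other cells were considered as a list. Like the other lists, it was chosen with earlier results of these data known, so its shares are not independent support. Of the 43 listed targets 30 were tested, and 3 rose, CYP24A1, TRPV6 and EFL1. The list median was 0.33 against 0.000258 over all genes. In both siRNAs 17 members were higher (56.7%, against 26.7% of all genes) and 4 lower (13.3%, against 27.6%). Of the 30 tested, 12 had both 8 h arrays above all untreated arrays (40%, against 6.75% of all genes). Nearest to the threshold was CLMN, a membrane protein with a calponin-type actin-binding domain, with 554 and 350 in LacZi untreated, 822 and 512 in p53i untreated, 1222 in LacZi at 8 h and 1338 in p53i at 8 h. It had a difference of 1.23 ± 0.22 (limma adjusted p 0.0504) with no overlap. SERPINB1, an inhibitor of neutrophil proteases, read 67.3 and 33.2 in LacZi untreated, 76.4 and 37.4 in p53i untreated, and 169 and 148 at 8 h (1.38 ± 0.29, limma adjusted p 0.145). CEBPB, a bZIP transcription factor, had a difference of 0.54 ± 0.12 (limma adjusted p 0.163). TXNIP, the thioredoxin-binding protein, was the one member below the untreated range, with 703 to 1321 in untreated cells and 397 in LacZi and 592 in p53i at 8 h (-0.86 ± 0.21, limma adjusted p 0.248). CDKN1A, the p21 cell-cycle inhibitor, read 191 and 255 in LacZi untreated, 151 and 241 in p53i untreated, 340 in LacZi at 8 h and 131 in p53i at 8 h. Its mean difference of 0.05 joined 0.59 in LacZi and -0.49 in p53i cells and changed sign with median centring. IGFBP3, an IGF-binding protein, had a difference of 0.63 (limma adjusted p 0.655), and KLK6, a secreted trypsin-like protease, one of 1.10 (adjusted p 0.443) from signals of 13.3 to 35.6 to 64.2 and 74.6.

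**Figure D3:**
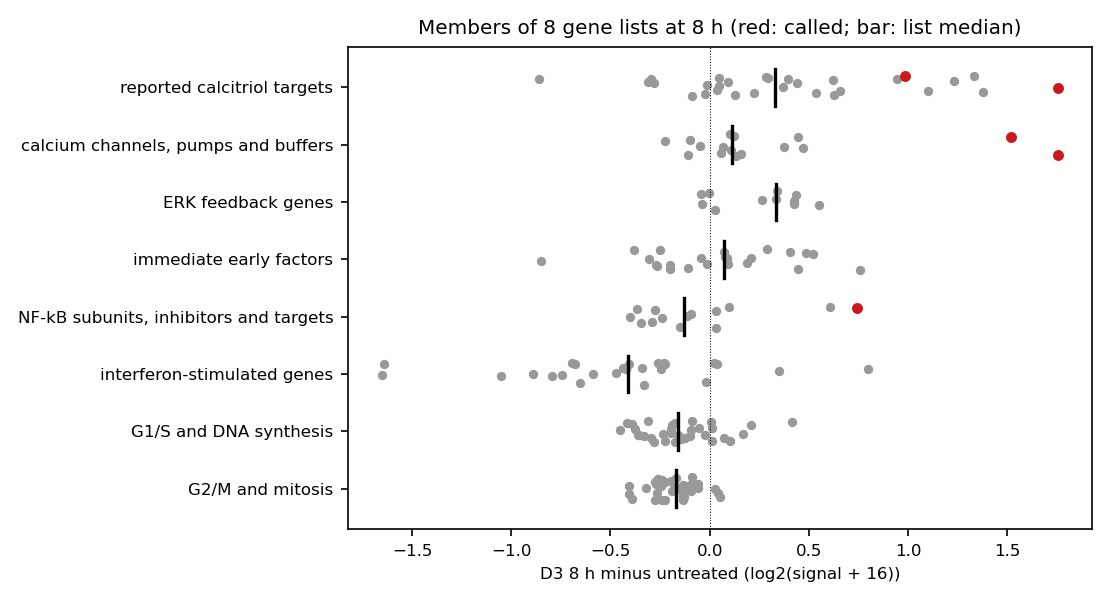
Difference at 8 h from untreated (log2(signal + 16)) of each tested member of 8 gene lists, 1 point per gene, with called genes in red and the list median as a black bar. CYP24A1, at 6.72, lies off the axis in the list of reported targets, whose median was 0.33, and the interferon-stimulated genes had the lowest median of the 8 lists, -0.41.

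None of the tested genes of the G1/S and G2/M lists was called at 8 h (0.175% of all genes were). Both list medians were below 0. Of 35 tested G1/S and DNA synthesis genes, 22 were lower in both siRNAs (62.9%) and 2 higher in both (5.71%). Over all genes these shares were 27.6% and 26.7%. Of the 35, 10 had both 8 h arrays below the untreated range (28.6%, against 6.35% of all genes), and the median was -0.16. Of 37 tested G2/M and mitosis genes, 27 were lower in both siRNAs (73.0%) and 1 higher (2.70%). Of the 37, 6 lay below the untreated range (16.2%), and the median was -0.17. The list medians were -0.43 and -0.41 at 20 h and -0.36 and -0.64 at 50 h, when 9 and 28 members were called lower (2.48% of all genes were), all against the same untreated arrays. RFC2, a subunit of the clamp loader, had a difference of -0.45, the flap endonuclease FEN1 one of -0.42, CKS1B, a CDK subunit, one of -0.41 (limma adjusted p 0.402), the spindle checkpoint protein MAD2L1 one of -0.41 and the mitotic kinase AURKB one of -0.39. CENPM, which fell, was in neither list. Among 16 CDK inhibitors and cyclins, 0 were called. CDK4, the G1 kinase, had a difference of -0.40 (limma adjusted p 0.250), its partner cyclin CCND1 one of 0.40 (adjusted p 0.335) and the CDK inhibitor CDKN2B one of 0.57 (adjusted p 0.584). MYC had a difference of 0.07.

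Interferon-stimulated genes had the lowest list median, -0.41 over 26 tested members, with 0 called (0.175% of all genes were). The median was -0.24 in LacZi and -0.63 in p53i cells. In both siRNAs 19 members were lower (73.1%, against 27.6% of all genes) and 2 higher (7.69%, against 26.7%). No member had both 8 h arrays below all 4 untreated arrays (0%, against 6.35% of all genes). By a looser measure, in 11 members each 8 h array lay below both untreated arrays of its own siRNA (12.8% of all genes did). BST2 (tetherin), an antiviral membrane protein, read 101 and 76.1 in LacZi untreated, 259 and 344 in p53i untreated, 4.67 in LacZi at 8 h and 144 in p53i at 8 h. IFI27, a mitochondrial interferon-induced protein, read 55.8 and 50.1 in LacZi untreated, 664.5 and 1451 in p53i untreated, 8.69 in LacZi at 8 h and 270.2 in p53i at 8 h. In both genes the untreated p53i arrays were brighter than the untreated LacZi arrays, and each treated array was below its own untreated pair, so the 8 h arrays overlapped the untreated range only across siRNAs. The differences were -1.65 ± 0.31 for BST2 (limma adjusted p 0.0663) and -1.64 ± 0.38 for IFI27 (adjusted p 0.202). Among settings that kept all arrays, BST2 passed the threshold under median centring (limma adjusted p 0.0417). It also passed with a block for the replicate number of the untreated arrays (limma adjusted p 0.0481). Without p53i untreated replicate 1 the differences were larger, -1.81 for BST2 and -1.94 for IFI27. That fit leaves untreated p53i cells without a duplicate, so only its effect sizes are given here. ISG15, a ubiquitin-like modifier, read 337 and 320 in LacZi untreated, 1486 and 3030 in p53i untreated, 240.3 in LacZi at 8 h and 1085 in p53i at 8 h (-0.69, limma adjusted p 0.559). The list median was -0.07 at 20 h and 0.34 at 50 h, and whether the siRNA difference among untreated arrays or their spread bore on the 8 h values was not tested.

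**Figure D4:**
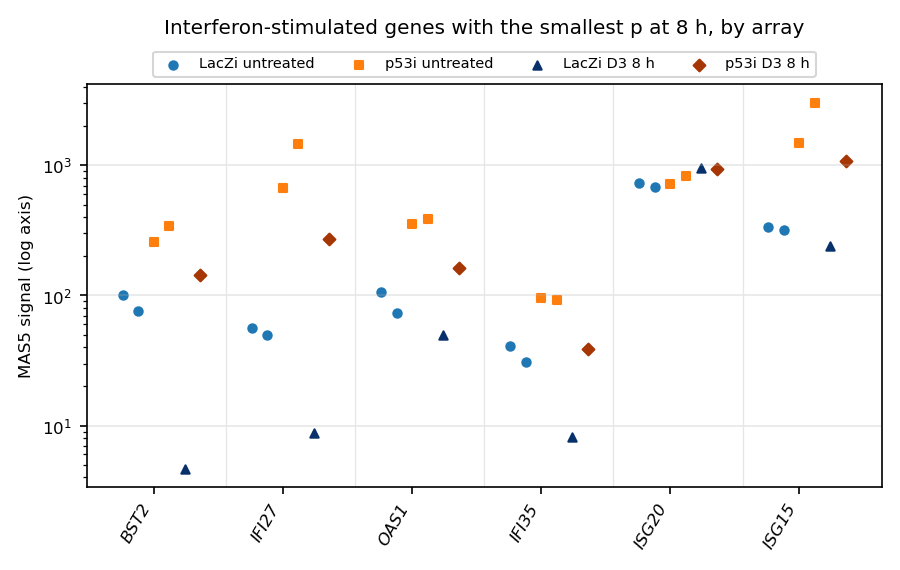
MAS5 signal (log axis) on the 6 arrays for the 6 interferon-stimulated genes with the smallest p at 8 h, with the array groups marked as in the plot of called genes. For BST2 the points run from 259 to 344 in untreated p53i cells to 144 at 8 h and from 76.1 to 101 in untreated LacZi cells to 4.67 at 8 h, and none of the 6 genes was called.

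Other lists held few or no calls at 8 h. Of all genes 0.175% were called, so 0 calls in lists this short do not show a lack of response. None was called among 23 tested p53 targets (median -0.01), where DDB2, a DNA damage sensor, had a difference of -0.92 and the nuclease AEN one of 0.50. None was called among 19 fatty acid genes (median -0.09), 24 glycolysis and hypoxia genes (-0.02), 7 kallikrein-related peptidases (0.08) or 16 apoptosis regulators (0.03). The same held for 19 luminal genes (-0.0042), 9 basal and squamous genes (0.05), 19 redox genes of the NRF2 programme (-0.05) and 19 genes of TGF-beta, BMP and Wnt signalling (0.11). In the last list WLS, the Wnt sorting receptor, had a difference of 0.85 and TGFB2, a TGF-beta ligand, one of 0.66.

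The 21 genes were followed to the later arrays, which share the untreated arrays with the 8 h comparison. By the same test 71 genes were called at 20 h (0.591%) and 518 at 50 h (4.31%), and these included 18 and 20 of the 21. LRRC43 was not called at 50 h, where its difference was -0.01 after -1.62 at 8 h and -0.37 at 20 h. PNMT differences were 2.10, then 1.55, then 1.26 at the successive times, and TRPV6 of 1.76, 1.57 and 1.33. OPN3 stood at 1.24, 1.32 and 1.55 and SOCS3 at 1.44, 1.57 and 1.31. SLC26A2 went from 1.15 to 2.08 and 2.96 and TM7SF2 from 0.80 to 1.54 and 2.21.

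**Figure D5:**
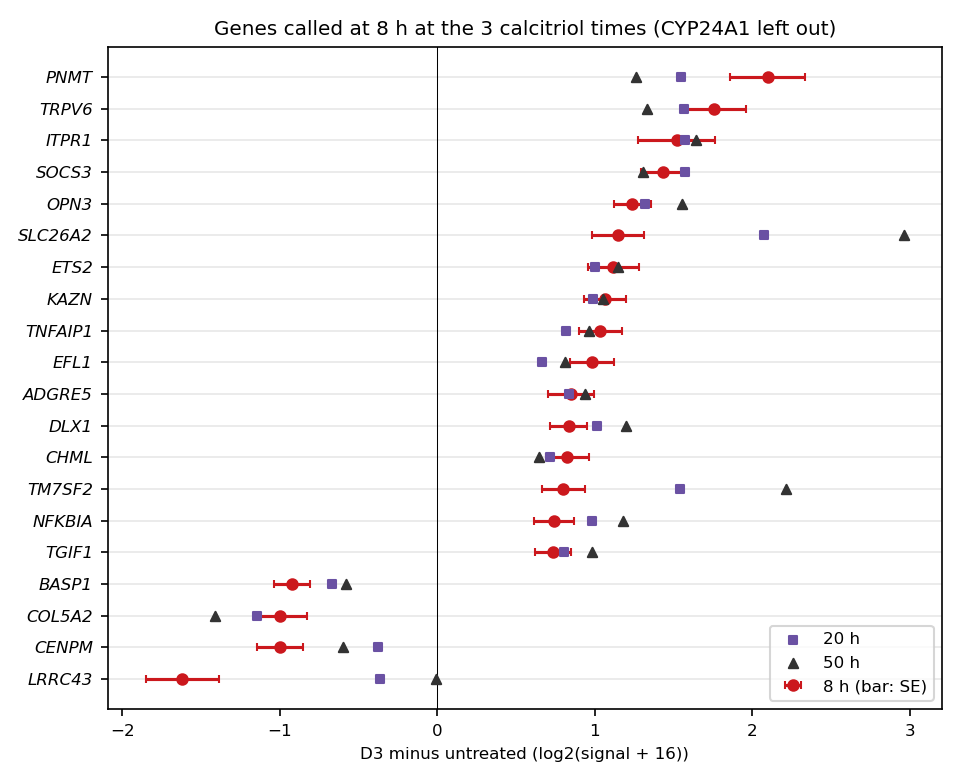
Difference from untreated (log2(signal + 16)) at 8 h (red, with its SE), 20 h (squares) and 50 h (triangles) for the called genes other than CYP24A1, each mean over both siRNAs. SLC26A2 and TM7SF2 have the highest values at 50 h (2.96 and 2.21), and LRRC43 lies at -0.01 at 50 h after -1.62 at 8 h.

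Direct tests of the later arrays against the 8 h arrays do not use the untreated level. Between 8 and 20 h 0 of 12022 genes were called by limma (0%), with 415 at an unadjusted p under 0.05. Between 8 and 50 h 16 genes were called (0.133%), 13 higher and 3 lower at 50 h, with 1156 at an unadjusted p under 0.05. Of the 21 early genes, 3 were among them. SLC26A2 gained 1.82 ± 0.19 (limma adjusted p 0.00658), with signals of 1664 in LacZi and 710.3 in p53i cells at 50 h against 402 and 220 at 8 h. TM7SF2 gained 1.41 ± 0.16 and LRRC43 1.61 ± 0.27 (limma adjusted p 0.0452). The LRRC43 call was lost in each of the 10 fits without 1 array and held in 1 of 10 other settings, while those of SLC26A2 and TM7SF2 each held in 6 of the 10 fits without 1 array. The count fell to 0 without the LacZi 8 h array or either 50 h array and to 1 without the p53i 8 h array, to 4 without either 20 h array, to 9 and 8 without LacZi untreated replicates 1 and 2, and rose to 25 and 24 without p53i untreated replicates 1 and 2.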

How the data were processed

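RNA from SKBR3 cells was measured on 10 Affymetrix arrays of 54675 probe sets. The authors deposited 1 table of linear signal intensity per probe set, made with MAS5 per the submitters' processing notes, and the values bear this out with a 2% trimmed mean of 200.03 on each array; the build and scanner steps are not given in the sources used here. Precision is limited by the number of arrays. Probe sets were named from the platform annotation: 41097 had 1 symbol, 1801 had several and 11777 had none, and only the first were used. A comparison of gene IDs with RefSeq (GRCh38.p14) changed 0 symbols, and 42 without a row there were kept.

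From these values log2(signal + 16) was computed, the brightest probe set of a gene by mean was kept, and genes in the upper 50% of probe sets by mean signal (above 35.4) were tested, 12022 in all. limma 3.58.1 in R 4.3.3 was fitted over all 10 arrays with siRNA and time as additive terms (5 residual degrees of freedom), with an intensity trend and Benjamini-Hochberg adjustment over all genes tested. A term for siRNA by 8 h was added to test differences between siRNAs (4 degrees of freedom), with 1 siRNA difference fitted over the untreated, 20 h and 50 h arrays. At 8 h each siRNA had 1 array, so the spread is borrowed from the untreated duplicates and the later times. The code was tested on simulated data. The label texts give 2 different intervals between transfection and D3, so the time from transfection to harvest is not settled.

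Genes were named by rule: all genes called at 8 h, uncalled genes with the largest differences whose 8 h arrays lay outside the untreated range, up to 6 members of each list with the smallest p, a fixed set including VDR, RXRA, CDKN1A, MYC and ERBB2, and genes called for the siRNA and time differences. Members and lists were chosen with earlier results of these data known. Alternatives to the normalisation, offset, filter, choice of probe set, model and arrays were run, and the ACTB 3'/5' ratio as a covariate was chosen after seeing the data.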

Additional observations from a re-analysis of the deposited data

Results flagged for a closer look

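QNG1 was singled out by the test of the difference itself: its interaction term at 8 h, p53i minus LacZi, was 2.60 ± 0.25 (limma adjusted p 0.00415). Against the untreated mean of the same siRNA, QNG1 differed by -2.28 in LacZi and 0.16 in p53i cells. The LacZi 8 h array alone was low (446), so the difference rests on that array, and a second, dim QNG1 probe set did not show it (44.3 in LacZi and 43.6 in p53i cells at 8 h).

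Genes were also singled out where the test of 50 h against 8 h found a difference (limma). The keratin-associated protein KRTAP3-1 differed by 2.81, with signals of 30.1 and 11.1 at 8 h and 415 and 126 at 50 h in LacZi and p53i cells. The amino acid transporter SLC6A14 differed by 2.17, the retinoid transporter ABCA4 by 2.03, SLC26A2 by 1.82, LRRC43 by 1.61, a call lost in each of the 10 fits without 1 array, and TM7SF2 by 1.41. The metalloreductase STEAP4 differed by 1.30, CYP1A1, a xenobiotic-metabolising cytochrome, by 1.15, the urea cycle enzyme CPS1 by 1.07 and the zinc transporter SLC39A10 by 0.92. Lower at 50 h than at 8 h were LINGO3 (-1.67), glutathione reductase GSR (-1.13) and the imprinted gene PEG10 (-0.97). KRTAP3-1, SLC6A14, ABCA4, STEAP4, CYP1A1, CPS1, SLC39A10, LINGO3, GSR and PEG10 had not been called at 8 h. None of these calls for 50 h against 8 h held in more than 6 of the 10 fits without 1 array. Those of ABCA4, CYP1A1, SLC39A10 and PEG10 held in 2.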

How the results depend on the processing

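No gene called at 8 h changed sign under the other settings that gave it a value (12, but 11 for PNMT and LRRC43, which the upper 25% filter leaves out) or the 10 fits without 1 array, and CYP24A1 was called in each of these (5.75 to 7.30). The count of 21 calls became 14 with median centring, 25 with quantile normalisation, 14 with no filter, 13 with the mean of a gene's probe sets, 5 without the intensity trend, 7 with only the untreated and 8 h arrays, 4 with a mean per group, 28 with the ACTB covariate, and 1 to 30 without 1 array. The 1 call for the siRNA difference became 0 with the mean of probe sets, without the trend, with 6 arrays or with a mean per group, and 1 to 2 without 1 array. The 0 calls between 8 and 20 h became 0 to 2 without 1 array. The 16 calls between 8 and 50 h became 6 with median centring, 5 with no offset, 4 with no filter, 9 with the upper 25% of probe sets, 5 with the mean of probe sets, 2 without the trend, 0 with a mean per group, and 0 to 25 without 1 array. The 25 genes at least 2-fold in both siRNAs became 67 with no offset, 6 with an offset of 64, 62 with no filter, 9 with the upper 25% and 15 with the mean of probe sets. The cause of these moves was not tested, except that smaller sets of arrays leave fewer degrees of freedom.

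Among uncalled genes, RXRA was 0.0086 with quantile normalisation and 0.0088 with the mean of probe sets, CDKN1A was -0.00995 and ERBB2 -0.048 with median centring. Without 1 array RXRA ran from -0.23 to 0.23, CDKN1A from -0.45 to 0.54, ERBB2 from -0.042 to 0.055, MYC from -0.086 to 0.21 and CYP27B1 from -0.71 to 0.34.

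The treated arrays carry no replicate number, so the replicate block could use only the numbers of the untreated arrays. With it 56 genes were called at 8 h, all 21 among them, and 74 between 8 and 50 h. The 2 untreated pairs share only a number: their duplicate differences correlated across genes at 0.22, and genes are not independent.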
